A study of Homo sapiens with 4 samples.

Results

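The single-base variants rs7672894 and rs7672716 lie 64 bases apart, at positions 90077431 and 90077367 of chromosome 4, and were assayed in a massively parallel reporter assay of the FAM13A locus. The positions are those of the deposited table. Its genome build is not named in the sources used here, so whether they are exonic or intronic was not analysed here. The pair comprised all rows of the table with either variant name, which were 24 oligonucleotides of 7270 and 723 tags of 218526. rs7672894 was selected on its allelic differences in these same libraries, and rs7672716 was picked by its position beside it. The allelic differences below are therefore descriptions and carry no test. Each variant was present with 2 alleles, A and T for rs7672894 and A and G for rs7672716, in 2 orientations, F and RC, each with the windows L, C and R (3 per orientation). An allele in 1 window and 1 orientation is an element, and the 2 alleles of 1 window and orientation form a construct, of which each variant had 6. The sources used here do not explain the letters of the windows.

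The libraries came from BEAS-2B, an established line of human bronchial epithelial cells, and each element was joined to a reporter with either a minimal promoter (minP), described by the submitters as weak, or the strong promoter of simian virus 40 (SV40). Input and RNA of each promoter made 4 groups, with 1 library each. Input was the plasmid pool itself, amplified by PCR without transfection, and RNA came from cells harvested 24 hours after nucleofection. With n = 1 per group, no value has an error between transfections. Every error below is a standard error (SE) over the tags of an element and covers only the spread between tags. The assay reads plasmid tags and no cellular genes, so the identity of the cells could not be checked against markers.

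The FAM13A locus is known from association studies of chronic obstructive pulmonary disease and lung function. In a reporter assay of this kind, a short genomic element is cloned beside a promoter, and each element is linked to many short barcodes, or tags, that are transcribed with the reporter. The amount of a tag in RNA divided by its amount in the plasmid pool measures how strongly the element drives the reporter, so an error or shift on either side moves the ratio. An element that acts as a classical enhancer would be active in both orientations, and alleles that alter a factor's site may differ in output.

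The libraries held 11086933 to 29398765 reads, and the pair took 0.339% to 0.488% of them. Each of its oligonucleotides had 25 to 32 tags. Levels are given in reads per 1000000 library reads (RPM), averaged over all tags of an element. The tag ratio is the log2 of RNA over input, both scaled to the library total after adding a pseudocount of 1, and was taken for tags whose input reached 10 reads. Activity is the mean tag ratio of an element minus that of all such tags of the library. The allelic difference is the mean of the alphabetically later allele minus the earlier, T minus A or G minus A. It was called past the threshold at a difference of at least 2-fold that was also at least 3 SE from 0.

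Tags were the designed sequences held in the table, each of 11 bases and written here as listed there, with the first 2 bases, on which tags were matched in an alternative, in capitals. Those shown are the tags with the lowest, middle and highest minP tag ratio of each allele in the constructs that carried the widest contrast in each orientation. They let the reader see the single measurements behind a mean.
rs7672894 A, window R, orientation F, lowest: ACggcactcat
rs7672894 A, window R, orientation F, middle: AGatgtcgata
rs7672894 A, window R, orientation F, highest: CGacgcataga
rs7672894 T, window R, orientation F, lowest: CAggccttgat
rs7672894 T, window R, orientation F, middle: GGataactttc
rs7672894 T, window R, orientation F, highest: GGtcaccaaga
rs7672894 A, window L, orientation RC, lowest: AGctatggcag
rs7672894 A, window L, orientation RC, middle: CTagaccggaa
rs7672894 A, window L, orientation RC, highest: TAtaccgtcga
rs7672894 T, window L, orientation RC, lowest: CTcattgccgc
rs7672894 T, window L, orientation RC, middle: ACgtactcctt
rs7672894 T, window L, orientation RC, highest: ACtgggcctca

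In orientation F, the middle A tag AGatgtcgata counted 207 reads in input and 13 in RNA with minP, and 107 and 9 with SV40. The middle T tag GGataactttc counted 259 and 164 with minP, and 147 and 378 with SV40. The T tag was thus higher in RNA at a like input. In orientation RC, the middle A tag CTagaccggaa counted 29 reads in input and 41 in RNA with minP, and 76 and 182 with SV40. The middle T tag ACgtactcctt counted 385 and 139 with minP, and 487 and 239 with SV40. There the A tag was lower than the T tag in all 4 libraries, by more in input than in RNA.

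In orientation F the T allele of rs7672894 gave more reporter RNA than the A allele in all 3 windows and with both promoters. Without element sequences, whether the plasmids of each allele carried the whole element and reporter was not tested, and every ratio and activity below assumes it. The contrast was widest in window R. Over all tags of that window, the A element stood at 6.62 RPM per tag in minP input, 1.51 in minP RNA, 4.32 in SV40 input and 1.14 in SV40 RNA. The T element stood at 5.57, 9.45, 5.40 and 10.0 in the same order. RNA was 6.25-fold higher for T with minP and 8.77-fold higher with SV40, while input was 1.19-fold higher for A with minP and 1.25-fold higher for T with SV40. The allelic difference of the tag ratio, T minus A, was 2.90 ± 0.37 on the log2 scale with minP (30 A and 31 T tags, 7.45-fold) and 2.62 ± 0.36 with SV40 (6.14-fold). At the level of tags, with minP 29 of 31 T tags lay above the median A tag, and 25 lay above the highest A tag. With SV40 those numbers were 29 and 16, so the spreads overlapped more there. These counts describe a variant chosen on its allelic differences and have no share over all constructs beside them.

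Window C had the same direction. Its A element stood at 3.71 RPM per tag in minP input, 1.42 in minP RNA, 3.59 in SV40 input and 1.25 in SV40 RNA, and its T element at 5.39, 5.48, 5.09 and 5.63. T was higher in all 4 libraries, by 3.86-fold and 4.52-fold in RNA against 1.45-fold and 1.42-fold in input. The tag ratio differed by 1.74 ± 0.41 with minP and 2.25 ± 0.44 with SV40. With minP, 27 of 30 T tags lay above the median A tag, but 3 lay above the highest A tag, so the spreads overlapped.

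Window L was the most abundant of the 3 in input. Its A element stood at 16.9 RPM per tag in minP input, 3.48 in minP RNA, 8.52 in SV40 input and 2.35 in SV40 RNA, and its T element at 10.8, 11.5, 10.7 and 11.5. RNA was 3.31-fold higher for T with minP and 4.91-fold higher with SV40. Input of the A element was 1.56-fold above T in the minP pool and below T in the SV40 pool, which shows that the pools were not composed alike. The ratio differed by 1.86 ± 0.32 with minP and 1.70 ± 0.33 with SV40. In RNA counts of the same tags alone, without the input, the difference was 1.18 ± 0.46 with minP, under 3 SE, and 1.94 ± 0.44 with SV40.

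All 3 forward constructs of rs7672894 were past the threshold in each promoter library, against 1.99% of 3469 constructs of the table with minP and 1.48% of 3439 with SV40. In RNA alone it was 2 of 3 with minP, where 2.10% of all constructs were past it, and 3 of 3 with SV40, where 2.21% were. In input alone it was 0 of 3 in either pool, with 2.05% and 1.89% of all constructs past it. Of variants with 3 forward constructs measured, 0.369% with minP (2 of 542) and 0.374% with SV40 (2 of 535) had all 3 past the threshold in 1 direction. Since rs7672894 was chosen by this contrast, nothing is read from these shares. Over all constructs the difference had a median size of 0.33 (minP) or 0.37 (SV40), and over the 12 constructs of the pair 1.18 or 0.76.

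In orientation RC the tag ratio of rs7672894 pointed the other way, while summed RNA did not. The A allele was scarce in both plasmid pools in all 3 windows. In window L the A element stood at 0.926 RPM per tag in minP input, 4.47 in minP RNA, 0.853 in SV40 input and 5.18 in SV40 RNA, and the T element at 9.97, 10.1, 10.8 and 9.47. T was 10.8-fold and 12.7-fold higher in the 2 inputs but also 2.25-fold and 1.83-fold higher in the 2 RNA libraries. Both the plasmid and the transcript of the A element were therefore lower, the plasmid by more. The ratio came to -2.33 ± 0.34 with minP (23 A and 27 T tags, A 5.04-fold higher) and -2.66 ± 0.38 with SV40 (A 6.32-fold higher). Over the same tags, RNA alone differed by 0.89 ± 0.43 and 0.55 ± 0.40 and input alone by 3.23 ± 0.29 and 3.21 ± 0.25. How far the scarcity of the A plasmids itself moves the ratio was not tested.

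Window R in orientation RC had the widest gap in input over all tags, while over the passing tags window L was wider (3.23 and 3.21 against 2.84 and 2.64). The A element stood at 0.421 RPM per tag in minP input, 2.05 in minP RNA, 0.359 in SV40 input and 2.24 in SV40 RNA, and the T element at 5.87, 5.57, 5.50 and 5.56. Input was 14.0-fold and 15.3-fold higher for T, and RNA 2.71-fold and 2.48-fold. Only 16 of the 32 A tags had 10 or more input reads with minP and 11 with SV40, and 7 and 11 had 0 input reads. The ratio was -1.83 ± 0.44 with minP and -0.26 ± 0.85 with SV40. When reads of all tags were summed with no minimum, an alternative chosen after seeing the data, the same construct stood at -2.36 and -2.62. With SV40, summing over the passing tags alone gave -0.88, and averaging with an input minimum of 1 gave -1.57, so its value depended on both choices.

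In window C of orientation RC the A element stood at 0.381 RPM per tag in minP input, 0.996 in minP RNA, 0.383 in SV40 input and 0.937 in SV40 RNA, and the T element at 2.09, 1.79, 2.26 and 1.98. T was again higher in all 4 libraries, by 5.49-fold and 5.91-fold in input and 1.80-fold and 2.11-fold in RNA. Over the tags that passed the minimum, however, RNA alone differed by -0.05 ± 0.73 with minP and 1.02 ± 0.80 with SV40, so the direction in RNA was not settled there. The ratio was -1.38 ± 0.69 with minP and -0.52 ± 0.81 with SV40, both under 3 SE, with 11 and 12 A tags. An allelic effect on transcription was not detectable there at this depth.

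Across the 6 constructs of rs7672894, summed RNA of the T allele was thus above that of the A allele in both RNA libraries, by 1.80-fold to 6.25-fold with minP and 1.83-fold to 8.77-fold with SV40. The forward and reverse constructs differed in the plasmid pools. In RC, input alone was past the threshold in 3 of 3 constructs of each pool, against 2.05% (minP) and 1.89% (SV40) of all constructs. In window L it ranked at place 2 by size among all constructs in both. In F, the inputs of the 2 alleles were within 1.56-fold of each other. RNA alone in RC was past the threshold in 0 of 3 constructs with minP and 1 of 3 with SV40, which was window R (2.38 ± 0.72). Over all constructs those shares were 2.10% and 2.21%. Counting the pair as a whole, 5 of 12 constructs were past the threshold in the ratio with minP and 4 of 12 with SV40. The shares over all constructs were 1.99% and 1.48%. In both libraries with 1 direction it was 4 of 12, against 0.936% of 3417 constructs of the table. All of these were constructs of rs7672894, which was chosen on its allelic differences, so nothing is read from these shares.

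Relative to the average tag, the forward A elements were low and the forward T elements were average or high. With minP, activity of A was -1.73 ± 0.20 in window L, -1.39 ± 0.30 in C and -1.77 ± 0.28 in R, the last being 3.41-fold under the average tag. Activity of T was 0.13 ± 0.25, 0.35 ± 0.28 and 1.13 ± 0.24 in the same windows. With SV40, A stood at -1.26 ± 0.21, -1.54 ± 0.32 and -1.17 ± 0.26 and T at 0.44 ± 0.26, 0.71 ± 0.30 and 1.45 ± 0.25. The T element of window R was at place 472 from the top of 7006 elements with minP and 354 of 6962 with SV40. In orientation RC the scarce A element of window L had an activity of 2.74 ± 0.25 and 3.15 ± 0.31, at places 40 and 43 from the top. Over its few tags with at least 50 input reads it was lower, at 1.88 with minP (4 tags) and 1.70 with SV40 (3 tags). Its RNA of 4.47 and 5.18 RPM per tag lay above the medians over all RC elements, 3.25 and 3.26, while its input lay below the medians of 3.18 and 3.20.

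None of the allelic differences of rs7672716 reached 3 SE. In orientation F with minP they were 0.77 ± 0.26 in window L, 0.22 ± 0.21 in C and -0.68 ± 0.39 in R, G minus A. With SV40 they were 0.78 ± 0.32, 0.35 ± 0.24 and -0.20 ± 0.37. In orientation RC the values ranged from -0.42 ± 0.63 to 0.97 ± 0.95 with minP and from -0.74 ± 0.61 to 1.62 ± 0.90 with SV40. None of the 6 constructs was past the threshold in the ratio in either library, nor in RNA or input alone. The closest was window L in orientation F, where the G allele was 1.71-fold higher with minP and 1.72-fold with SV40, at 2.94 and 2.48 SE. In that window the A element stood at 13.3 RPM per tag in minP input, 11.6 in minP RNA, 12.3 in SV40 input and 12.1 in SV40 RNA, and the G element at 11.6, 13.6, 11.5 and 14.0. The SEs ran from 0.37 to 0.95 in window R of orientation F and in all 3 windows of orientation RC. A difference of 2-fold would have stayed under 3 SE there in either library.

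What varied around rs7672716 was the window, with both alleles moving together. In orientation F with minP, window L had activities of 0.12 ± 0.21 (A) and 0.89 ± 0.16 (G), window C -1.80 ± 0.16 and -1.58 ± 0.14, and window R -2.30 ± 0.28 and -2.99 ± 0.27. The G element of window R was at place 2 from the bottom of 7006 elements and its A counterpart at place 75. These values lie near the count floor, as 8 of 29 G tags and 6 of 28 A tags had 0 RNA reads. Pearson's r between their minP and SV40 tag ratios was 0.046 (G) and 0.26 (A). With SV40, window R stood at -1.29 ± 0.28 and -1.49 ± 0.24, at places 936 and 752 of 6962, and window C at -1.22 ± 0.18 and -0.87 ± 0.16. The low window R elements had 5.17 and 6.16 RPM per tag in minP input but 1.58 and 2.22 in SV40 input, and in RNA 0.793 and 0.606 with minP and 0.393 and 0.422 with SV40. Their RNA was thus low in both libraries, and the lower activity with minP went with more input in that pool. Since each promoter had 1 library, a promoter effect and a difference between the pools cannot be told apart.

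The windows of rs7672716 fell beside the alleles of rs7672894, a comparison chosen after the values were seen. In orientation RC, windows C and R of rs7672716 had 0.427 to 0.702 RPM per tag in minP input over 4 elements, and the A elements of rs7672894 had 0.381 to 0.926 over 3. Window L of rs7672716 had 3.62 and 5.80, and the T elements of rs7672894 had 2.09 to 9.97. The ranges in SV40 input were 0.381 to 0.785, 0.359 to 0.853, 3.81 to 4.97 and 2.26 to 10.8 in the same order. The scarce elements of both variants and the abundant ones did not overlap in either pool. Since the groups were formed with these values known, this is a description and no support. Over all RC elements the median input was 3.18 (minP) and 3.20 (SV40), and the lowest 10% were under 0.658 and 0.700.

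In orientation F the same grouping, also set with the values known, appeared in activity. With minP, windows C and R of rs7672716 lay between -2.99 and -1.58 and the A elements of rs7672894 between -1.77 and -1.39, while window L of rs7672716 stood at 0.12 and 0.89 and the T elements at 0.13 to 1.13. With SV40 the ranges were -1.49 to -0.87 and -1.54 to -1.17 for the low elements, and 0.51 to 1.29 and 0.44 to 1.45 for the high ones. The variants lie 64 bases apart, so some windows may cover both positions. Which windows of rs7672716 contained position 90077431, and with which allele, was not analysed here. Elements that share sequence are not independent measurements of the locus.

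In orientation RC, activity of rs7672716 was high in window C and not settled in window R, both of which were scarce in input. Window C stood at 2.63 ± 0.29 (A) and 2.21 ± 0.56 (G) with minP and 2.56 ± 0.34 and 1.82 ± 0.50 with SV40, at places 49 and 76 from the top of 7006 and 79 and 194 of 6962. Few of its tags reached 50 input reads, 2 (A) and 2 (G) with minP and 1 and 3 with SV40. Over those alone, activity was 0.75 and -1.14 with minP and 0.76 and -0.28 with SV40. The high values thus rested on tags under 50 input reads. Its input was 0.702 and 0.542 RPM per tag with minP, and its RNA was 3.92 and 3.29. With minP, window R was scarcer still at 0.427 and 0.448, with 11 and 14 passing tags against 20 and 18. It had less RNA, 0.748 and 1.43, and activities of -0.70 ± 0.72 and 0.27 ± 0.62. With SV40 its activities were -0.88 ± 0.58 (A) and 0.74 ± 0.69 (G), over 14 tags each. Over all tags its SV40 RNA was 0.786 and 1.60 RPM per tag, at an input of 0.566 and 0.381. Window L, the abundant one, was near the average tag with minP at -0.03 ± 0.32 and 0.38 ± 0.35.

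Over the whole library, the mean tag ratio in 5 bands of input reads lay between -0.13 and 0.26 of the average tag with minP and between -0.26 and 0.31 with SV40. Tags with 10 to 19 input reads stood at 0.26 and -0.01, and tags with at least 200 at 0.10 and 0.31. When each tag ratio was set against the mean of tags in the same band of input reads, an alternative chosen after seeing the data, window L of rs7672894 in orientation RC stood at -2.43 with minP and -3.07 with SV40, and window R in orientation F at 2.93 and 2.57. The bands began at 10 reads and averaged over all elements, while some tags of the scarce A elements had fewer reads. The matching therefore does not test how far that scarcity moves the ratio. The tags of the 2 alleles differ in sequence, and their mean number of G and C bases per element ranged from 4.86 to 5.88. Matched on the number of G and C, window R in orientation F stood at 2.90 and 2.63, and matched on the first 2 bases at 2.92 and 2.64. The corresponding values of window L in orientation RC were -2.34 and -2.67, and -2.30 and -2.69.

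Both plasmid pools carried the same tags, so the promoters do not give fully independent measurements. Over the 24 elements, Pearson's r between the minP and SV40 tag ratios ranged from 0.046 to 0.93 with a median of 0.76, over 5 to 32 tags that passed in both, as a description. For log input, r between the pools was -0.12 to 0.30 in windows C and R of rs7672716, orientation RC. For the reverse A elements of rs7672894 it was 0.20 in L, -0.05 in R and 0.89 in C (5 tags). The other elements had 0.53 to 0.92. Tag by tag, input of most scarce elements was thus little alike between the pools. To separate the tags, those at odd and at even places in the alphabetical order of an element were also used apart. For window R of rs7672894 in orientation F, odd tags gave 2.75 ± 0.58 with minP and even tags 2.92 ± 0.47 with SV40. Window C gave 1.24 ± 0.67, under 3 SE, and 2.58 ± 0.62, and window L 2.01 ± 0.39 and 1.47 ± 0.45. Window L in orientation RC gave -2.37 ± 0.46 and -2.18 ± 0.51. These constructs were picked for being past the threshold in both libraries with all tags, so their direction in part of the tags is a description and no support.

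The nearest variants of the table on either side had no construct past the threshold in either library. Of all constructs, 1.99% with minP and 1.48% with SV40 were past it, so having none does not set these variants apart. They were rs62306424 and rs4491985 on the lower side, 1134 and 277 bases from the nearer of the pair, and rs79013678 and rs35160360 on the upper side, 555 and 842 bases away. Their allelic differences ranged from -0.65 to 0.99 for rs4491985 with minP and from -1.84 to 0.56 for rs62306424 with SV40. For rs79013678 they lay between -0.80 and 0.45 with minP. The SEs of these neighbouring variants ran from 0.29 to 0.92. In most of their constructs a difference of 2-fold would have stayed under 3 SE.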

How the data were processed

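The values were read counts for each tag of 11 bases, deposited as whole numbers for 4 libraries, 1 per group, and made from single reads of 36 nt, per the labels' protocols. How the authors matched reads to tags or filtered them is not described in the sources used here. No molecular identifiers were stated, so reads are not independent molecules. The columns named output were taken as the RNA libraries of each promoter. Counts were used as deposited with Python 3.11.15, pandas 2.3.3, numpy 2.4.6 and scipy 1.17.1. At least 10 tags per allele were required for an allelic difference, and 5 where only odd or even tags were used. RNA and input alone were means over the same tags. RPM per tag used all tags with no minimum. Count models and p-values were not used, since each group had 1 library. The threshold of 2-fold and 3 SE was applied to every construct of the table. The contrast was tested on simulated data with equal tag numbers and like input for both alleles, a setting unlike that of the scarce reverse A elements. Members, rules and lists were chosen with earlier results of these data known. Named were both variants in full, the nearest variants on either side, and those with the most similar pattern of allelic differences. Alternatives were other input minimums (1 and 50), a pseudocount of 0.5, trimmed, median or summed values, tags with 0 RNA reads left out, tags passing in both pools, matched tag composition and disjoint tags. Summed counts over all tags and matched input reads were added after the data were seen. The element sequences were not used here.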

Additional observations from a re-analysis of the deposited data

How the results depend on the processing

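Every allelic difference of rs7672894 past the threshold kept its sign and stayed within its 95% interval over tags under each of the 122 alternative values that could be had. The ranges over alternatives were 2.67 to 3.16 (minP) and 2.33 to 3.23 (SV40) for window R in orientation F, 1.24 to 2.40 and 1.67 to 2.72 for window C, 1.69 to 2.37 and 1.47 to 1.96 for window L, and -2.72 to -1.95 and -3.15 to -2.18 for window L in orientation RC. Window R in orientation RC ranged from -2.65 to -0.999 with minP, the last from its even tags alone (SE 0.76). RNA counts alone are not among these alternatives and are given with the results.

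The count of constructs past the threshold was 5 with minP. It was 3 with an input minimum of 50, under which 7 of the 12 constructs had enough tags and the reverse constructs of rs7672894 were lost, and 2 at 4-fold, and its other values lay between 4 and 6. The count with SV40 was 4 and ranged from 3 to 5. For constructs not past the threshold, 3 values moved beyond their interval: rs7672716 in window R, orientation F, with minP stood at -1.46 with odd tags and 0.13 with even tags, and rs7672894 in window R, orientation RC, with SV40 at -2.62 with summed reads of all tags. Of the alternative values of element activities, 174 stayed within their interval and 4 did not, all of rs7672716 in orientation F with SV40: window C stood at -1.57 (A) and -1.22 (G) against the median tag and at -1.28 (G) as the median over tags, and window L at 0.80 (G) as the median over tags. For an input minimum of 50, tags with 0 RNA reads left out, or tags required in both pools, some reverse constructs had too few tags and gave no value. Scarcity in the plasmid pools limited the reverse A elements of rs7672894, with 11 to 23 passing tags against 26 to 30 for the reverse T elements in the same libraries. No paired analysis was possible because each group had 1 library.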

Other observations

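Among 557 variants with at least 10 values in common, the pattern of allelic differences over windows, orientations and libraries was most like that of rs7672894, with the sign free, for rs7696844 (Pearson's r 0.93 over 12 values), rs3017913 (r -0.92) and rs3822073 (r -0.91). These 12 values share tags between the libraries, and the r is a description. For rs3017913, G minus A lay between -1.38 and -0.87 in orientation F and between 1.08 and 2.07 in RC with minP. For rs3822073 with minP, T minus C lay between -1.41 and -0.99 in F and between 0.93 and 1.88 in RC. For rs7696844, T minus G lay between 0.25 and 0.78 in F and -0.43 and 0.05 in RC with minP, and between 0.63 and 0.88 in F and -0.90 and 0.17 in RC with SV40. The neighbour rs7672716 ranked at place 408 of 557 with r -0.18.

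Among constructs past the threshold in the whole table, RNA alone had the opposite sign to the ratio in 5 of 35 in orientation RC and 3 of 34 in F with minP, and in 1 of 26 and 1 of 25 with SV40. In rs7672894 this held for windows L and R of orientation RC with minP and for window L with SV40. Window L of rs7672894 was thus the single such case in orientation RC with SV40.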
